A study of Homo sapiens with 4 samples.

Results

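Motile cilia axoneme genes encode the machinery that makes a cilium or a sperm tail beat. The 89 genes described here were chosen by gene symbol from the 62696 genes of 4 RNA-seq count tables. They are the axonemal dyneins (DNAH, DNAI), the dynein assembly factors (DNAAF), the radial spoke genes (RSPH), the numbered cilia and flagella associated genes (CFAP), the outer arm docking genes ODAD1 to ODAD4 and the nexin-dynein regulatory complex (DRC). SPAG6, SPAG16 and SPEF2 of the central pair and the regulators FOXJ1, MCIDAS and GMNC complete the set. HYDIN and HYDIN2 were left out by the rule. The rule uses gene symbols and no expression values, but it was set with earlier results of these data known. Every symbol occurred once.

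All libraries came from NT2 (NTERA-2) cells, a human embryonal carcinoma line grown in medium with serum. The empty vector group, with the genotype given as wild type, had 1 library, called the control below, and the HYDIN2 knockdown group had 3, numbered as replicates 1 to 3. The labels do not state how the knockdown was made or whether replicates were separate cultures, so spreads among the 3 libraries may be technical. Library totals ran from 25181737 to 62904698 counts, with the control and replicate 3 the shallowest.

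HYDIN2, the targeted gene, is a partial copy of HYDIN, a central pair gene. It had 12 counts in the control against 150, 112 and 11 counts in replicates 1, 2 and 3. It was therefore higher in replicates 1 and 2, and 0.352 CPM in replicate 3 stood beside 0.50 CPM in the control. Lower HYDIN2 was not seen in 2 of the 3 libraries labelled knockdown, and 11 counts against 12 are too few to show it in replicate 3. The headers of the count columns name a LacZ control and GKAP_KIF27 sets instead. The groups are called labelled knockdown throughout for these reasons. HYDIN itself stood at 5.62 CPM (counts scaled to a library's total) in the control against 8.67, 8.06 and 4.26 CPM in the replicates. Reads can be shared between these near-identical copies.

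A motile axoneme has a ring of doublet microtubules around a central pair. Outer and inner dynein arms on the doublets pull neighbouring doublets past each other, radial spokes pass signals from the central pair to the arms, and the nexin-dynein regulatory complex links the doublets. Dynein arms are built in the cytoplasm by assembly factors before they enter the cilium. FOXJ1 and the RFX factors switch these genes on in multiciliated and nodal cells, and GMNC and MCIDAS act above FOXJ1 in multiciliated cells. The labelled cell type was checked against its markers. All 8 embryonal carcinoma markers examined were above 1 CPM in every library, POU5F1 from 19.4 to 42.8 CPM and LIN28A from 1912 to 3620 CPM. In all 3 labelled knockdown libraries 1 of the 8 (DNMT3B) was 2-fold lower, where 2.72% of all genes were. In replicate 3, 5 of the 8 were 2-fold lower, against 15.9% of all genes. The 8 summed to 3833 CPM there against 6753 CPM in the control and 6681 and 6934 CPM in replicates 1 and 2. Without LIN28A the other 7 summed to 3908 CPM in the control against 3167, 3314 and 1921 CPM in the replicates. Replicate 3 was thus the lowest on both sums, and replicates 1 and 2 also lay below the control on the second. Of 11 multiciliated cell markers, which include FOXJ1, GMNC and MCIDAS, 4 (DEUP1, PIFO, TP73 and TPPP3) had a mean of the 2 group means of at least 1 CPM. Summed over the 11 markers, the level was 15.1 CPM in the control against 13.5, 14.2 and 12.1 CPM in replicates 1, 2 and 3. With DEUP1 left out, the other 10 summed to 11.08 CPM against 9.235, 9.833 and 10.98 CPM. Replicate 3 was then near the control and above replicates 1 and 2, so its place as the lowest sum rested on DEUP1. Of 8 sperm and spermatid markers 2 were tested, of which ACRV1 was 2-fold higher in all 3 labelled knockdown libraries, where 3.65% of all genes were. PRM2 and TNP1 were listed at 0 in all 4 libraries. The summed level of the 8 was 44.1 CPM in the control against 36.2, 39.0 and 33.7 CPM, nearly all of it from ODF2, a gene also used by centrosomes. Without ODF2 the other 7 summed to 0.583 CPM against 1.48, 1.56 and 2.46 CPM. Fewer cells of a ciliating type and less RNA per cell cannot be told apart in bulk RNA.

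A promoter motif that the choice by symbol did not use was more frequent in these genes than in the table as a whole, though most lacked it. RFX factors bind the X-box, searched here as GTNNCCNNNGNNAC on both strands, so a printed match may fit the reverse complement of these letters. RefSeq promoter windows (GRCh38.p14), which run from 250 bases before to 50 bases after the start site, were found for 72 of the 89 genes. An X-box match was present in 21 of the 72 windows (29.2%), against 5.11% of 22199 windows of protein-coding genes and 4.82% of all 35116 windows. The other motifs searched were less apart. The forkhead letters GTAAACA, the kind of site FOXJ1 binds, were found in 4.17% of member windows and 2.85% of protein-coding windows, and CCAAT in 38.9% and 34.7%. X-box matches occurred in 5 of 11 dynein heavy chain windows, 4 of 10 radial spoke windows, 4 of 10 central pair windows and 1 of 6 assembly factor windows. The shorter letters GTNNCC, with which the full site begins, were in 98.6% of member windows and 90.8% of protein-coding windows. A match is a string of letters and was not tested as a bound site. The sequences below are shown because they carry this motif in members whose levels are described further on, with the X-box in capitals and 8 bases on each side, on the strand of the gene.
DNAH1 (chr3:52316214-52316227, plus strand): aggctgatGTTGCCATGGCAACccggatag
DNAH2 (chr17:7717726-7717739, plus strand): tgcccgggGTTGCCATGGGGACgcgtgcag
DNAH12 (chr3:57544372-57544385, minus strand): ccgccacaGTTTCCATGGCGACgacgttgt
CFAP251 (chr12:121918560-121918573, plus strand): cggtggcgGTTGCCATGGGGACggagcttg
SPAG16 (chr2:213284280-213284293, plus strand): gcaacatcGTTGCCACGGTAACtgggaggc
SPAG6 (chr10:22345472-22345485, plus strand): tccggtagGTTGCCCGGGAGACgcgggtac
DNAH9 (chr17:11598461-11598474, plus strand): gcgtccccGTCGCTAGGGAAACcgatgcag
DNAH11 (chr7:21543011-21543024, plus strand): gggacaccGTCCCCCGGGAAACgggacgcg
CFAP36 (chr2:55519631-55519644, plus strand): ctacgtgtGTTGCCATAGCGACcattttgc
CFAP47 (chrX:35919608-35919621, plus strand): gtttttcaGTTACTCTGGTAACacctgtga
RSPH9 (chr6:43644885-43644898, plus strand): gccatactGTGGCCGTGGCAACtgaagaca
Among members above 1 CPM with a window, 8 of 33 had an X-box, as did 13 of the 39 members below 1 CPM with a window.

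**Figure D1:**
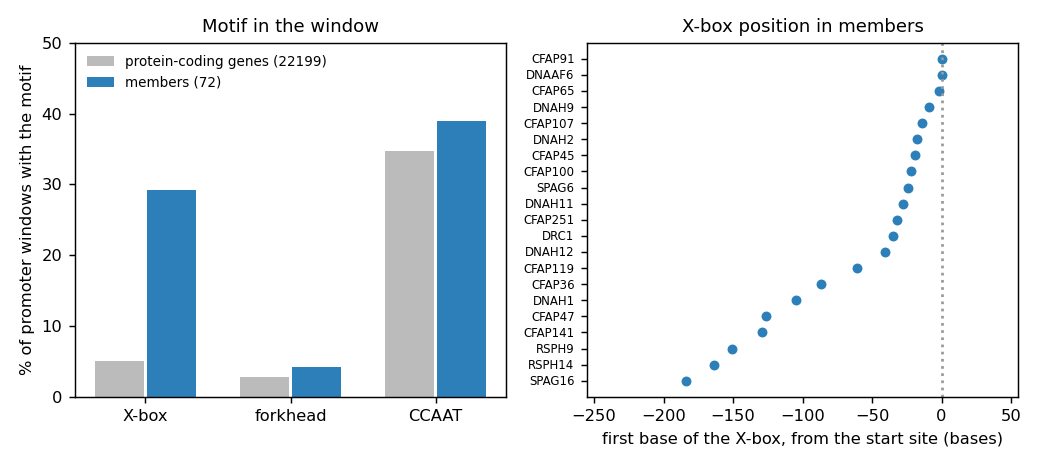
Left, share of promoter windows holding each motif, in percent, for 22199 protein-coding genes (grey) and 72 motile cilia genes (blue), with the X-box found in 29.2% of the latter and 5.11% of the former. Right, position of the first X-box base relative to the start site (dotted line) in the 21 genes that have one, from -184 (SPAG16) to 0 (CFAP91 and DNAAF6).

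Of the 89 genes, 40 had a mean of the 2 group means of at least 1 CPM, with counts scaled by trimmed mean of M-values (TMM). That share, 44.9%, lay above the 25.3% of all 62696 genes in the tables and below the 67.3% of 19849 protein-coding genes. In single libraries 40, 42, 42 and 43 members reached 1 CPM in the control and in replicates 1, 2 and 3, and 33 did so in all 4. A further 41 members lay between 0.1 and 1 CPM, and 8 lay below 0.1 CPM. None was at 0 in all 4 libraries, and CFAP206, a gene of the radial spoke region, was the only one with at most 3 counts in each. The members nearest the line were GMNC at 0.961 CPM and CFAP95 at 0.937 CPM just below it, and CFAP57 at 1.01 CPM and RSPH9 at 1.05 CPM just above it. Together the 89 genes took between 0.0524% and 0.0556% of the counts of a library.

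The share above 1 CPM differed by role. It was 10 of 13 dynein heavy chains, 7 of 11 central pair genes, 6 of 12 assembly factors, 3 of 11 radial spoke genes, 2 of 12 proteins inside the doublet microtubules and 1 of 5 docking complex genes. None of the 3 regulators passed. Long transcripts gather more counts at an equal number of molecules, so levels between genes are compared per kilobase (kb) of the longest annotated transcript. On that scale the median of the assembly factors, 0.866 CPM per kb, lay above those of the heavy chains (0.370), the central pair genes (0.180) and the radial spoke genes (0.0718). The median over protein-coding genes was 2.33 CPM per kb. Only 17 of the 89 genes reached 1 CPM per kb.

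**Figure D2:**
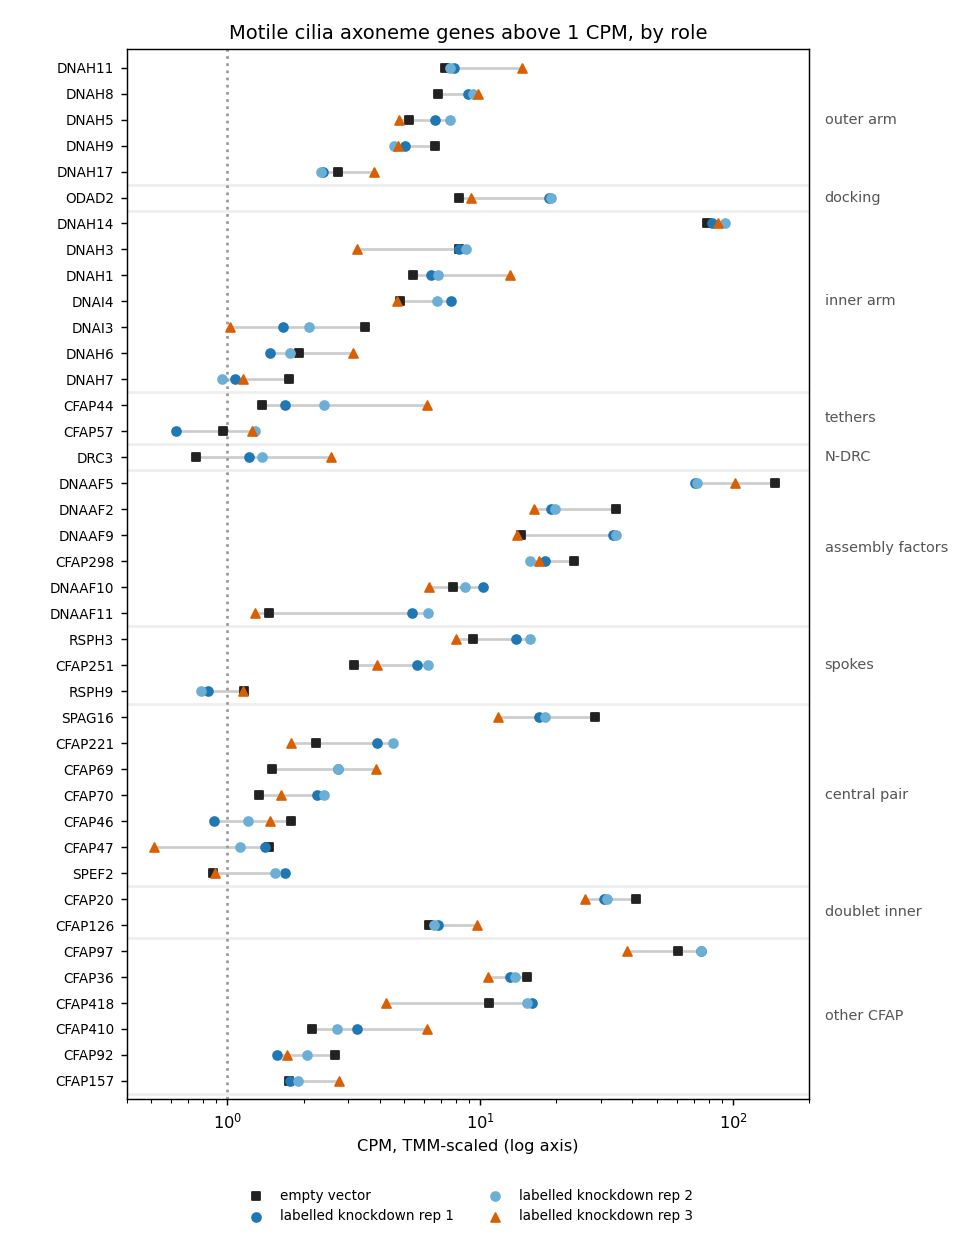
CPM (TMM-scaled, log axis) of the 40 members with a mean of the 2 group means of at least 1 CPM, grouped by role, with 1 point per library and a grey line over the range. Black squares are the control, blue circles the labelled knockdown replicates 1 and 2, and orange triangles replicate 3; the dotted line marks 1 CPM.

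A few genes carried most of the signal. The 5 most abundant by CPM (DNAAF5, DNAH14, CFAP97, CFAP20 and DNAAF2) took 62.0% of the members' summed CPM in the control against 51.8%, 52.5% and 56.2% in the replicates. Per kb the order of the highest members was DNAAF5 (33.5 CPM per kb), CFAP20 (22.1), CFAP97 (12.7), CFAP126 (9.01), DNAAF2 (8.89), CFAP298 (8.06), CFAP36 (6.80), DNAH14 (6.05), SPAG16 (4.64) and CFAP418 (3.40). Neighbours such as CFAP126 and DNAAF2 were not separated, because their order changed between libraries. CFAP20, a junction protein of the doublet microtubules, stood at 41.3 CPM in the control against 30.9, 31.6 and 26.0 CPM in replicates 1, 2 and 3. CFAP97 stood at 60.8 CPM in the control against 74.4, 74.3 and 38.1 CPM. CFAP126, known as Flattop, had 6.25 CPM against 6.78, 6.57 and 9.73 CPM, and its whole length overlaps SDHC on the other strand. CFAP36 had 15.3 CPM against 13.1, 13.7 and 10.8 CPM. CFAP20 and CFAP36 were thus lowest in replicate 3 and highest in the control, while CFAP126 was highest in replicate 3.

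The heavy chains are the motor subunits of the arms. DNAH14 (ENSG00000185842.16; chromosome 1, 224896262 to 225399292, plus strand, GRCh38) was the most abundant in every library. It is grouped here with the inner arm, and less is known of it than of the others. DNAH14 had 78.9 CPM in the control against 82.8, 92.7 and 87.0 CPM in replicates 1, 2 and 3. That was between 58.3% and 64.7% of all heavy chain CPM. The 4 values lay close together, with a mean log2 difference from the control of 0.15 ± 0.08 (SD, n = 3). Per kb, DNAH14 ranged from 5.74 to 6.73 and no other heavy chain exceeded 1.03 in any library.

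Outer arm heavy chains followed. DNAH11, DNAH5 and DNAH9 act in airway and nodal cilia, and DNAH8 and DNAH17 are the forms of sperm tails. DNAH11 had 7.25 CPM in the control against 7.85, 7.59 and 14.6 CPM in the replicates, so replicate 3 alone stood apart. DNAH8 had 6.79 CPM against 8.96, 9.36 and 9.80 CPM, and DNAH9 had 6.62 CPM against 5.04, 4.54 and 4.74 CPM. These were the outer arm genes with the highest and the lowest mean log2 difference, 0.46 ± 0.06 and -0.47 ± 0.08 (SD, n = 3). In both genes the 3 labelled knockdown libraries lay on 1 side of the control, but by less than 2-fold. With length and GC trends removed, DNAH8 lay below the control in all 3 libraries, at -0.37, -0.26 and -0.41, and DNAH9 passed 2-fold lower. DNAH5 ranged from 4.77 to 7.57 CPM and DNAH17 from 2.35 to 3.81 CPM over the 4 libraries. The intermediate chains that anchor the outer arm were low, DNAI1 with 4 to 66 counts and DNAI2 with 0 to 4 counts.

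Inner arm chains were spread over a wider range. DNAH1, a single-headed inner arm chain, had 5.42 CPM in the control against 6.39, 6.80 and 13.1 CPM in the replicates, a mean log2 difference of 0.61 ± 0.57 (SD, n = 3). DNAH3 had 8.21 CPM against 8.21, 8.78 and 3.27 CPM. Replicate 3 was thus the highest library for DNAH1 and the lowest for DNAH3. DNAH2, a heavy chain of the 2-headed inner arm, was at 4 counts in the control against 17, 12 and 103 counts in the replicates. Its 3.30 CPM in replicate 3 was 19.8 times the control level, with a 95% interval from 5.26 to 169 that covers counting error only. DNAH10, its partner in the same arm, had 10 counts in the control against 13, 24 and 2 in the replicates, so the partners did not move alike. DNAI3, an inner arm intermediate chain, was lower in all 3 labelled knockdown libraries, at 1.65, 2.11 and 1.02 CPM against 3.50 CPM. Its mean log2 difference of -1.17 ± 0.51 (SD, n = 3) was the lowest of the 40 members, but replicate 2 was less than 2-fold lower. DNAI3 overlaps MCOLN3 on the other strand.

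**Figure D3:**
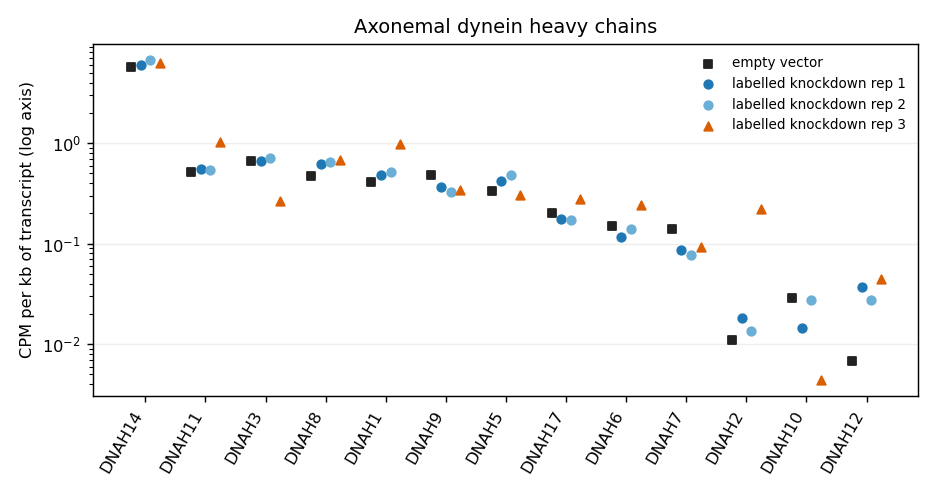
Level of the 13 axonemal dynein heavy chains in CPM per kb of transcript (log axis), 1 point per library, ordered by the mean of the 2 group means. DNAH14 stands apart at 5.74 to 6.73 in all 4 libraries, and DNAH2 is high in replicate 3 only.

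Assembly factors had the highest summed level of any role, 231 CPM in the control against 159, 158 and 159 CPM in the replicates. DNAAF5 (ENSG00000164818.16; chromosome 7, 726701 to 786475, plus strand, GRCh38) made up much of it. DNAAF5 had 147 CPM in the control against 70.9, 72.1 and 102 CPM, ratios of 0.484 (0.454 to 0.515), 0.492 (0.462 to 0.524) and 0.695 (0.649 to 0.744). DNAAF2, which helps dynein heavy chains fold, had 34.4 CPM against 19.0, 19.7 and 16.3 CPM, a mean log2 difference of -0.91 ± 0.15 (SD, n = 3). CFAP298 had 23.4 CPM against 18.1, 15.7 and 17.0 CPM. In these 3 genes the control was the highest of the 4. Others were high in replicates 1 and 2 alone. DNAAF11, a cytoplasmic assembly factor, had 1.46 CPM in the control, 5.35 and 6.23 CPM in replicates 1 and 2, and 1.28 CPM in replicate 3. Its ratios were 3.67 (2.18 to 6.15), 4.27 (2.56 to 7.17) and 0.878 (0.429 to 1.71). DNAAF9 had 14.5 CPM against 33.4, 34.5 and 14.0 CPM, the same order of libraries.

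In the docking complex, which fixes outer arms to the doublet, ODAD2 was the only gene tested. It had 8.25 CPM in the control, 18.7 and 19.1 CPM in replicates 1 and 2 and 9.22 CPM in replicate 3, so only replicates 1 and 2 stood apart.

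Radial spoke genes were few and modest. RSPH3, a stalk protein, had 9.37 CPM in the control against 13.9, 15.7 and 8.0 CPM in the replicates. CFAP251, of the complex at the spoke base, had 3.17 CPM against 5.61, 6.23 and 3.91 CPM, with a mean log2 difference of 0.69 ± 0.35 (SD, n = 3). RSPH9, a spoke head protein, had 1.17 CPM against 0.835, 0.787 and 1.15 CPM. Among the other head genes, RSPH1 had between 2 and 26 counts and RSPH6A between 4 and 10. RSPH4A had 4 counts in the control, against 28 for RSPH9, and between 31 and 59 in the replicates.

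Central pair genes went both ways. SPAG16, a central apparatus protein, was the most abundant, at 28.5 CPM in the control against 17.1, 18.0 and 11.7 CPM in the replicates. Its mean log2 difference was -0.89 ± 0.34 (SD, n = 3), and the gene holds a long antisense transcript. CFAP69 had 1.5 CPM against 2.73, 2.73 and 3.87 CPM, with ratios of 1.82 (1.09 to 3.22), 1.82 (1.09 to 3.24) and 2.58 (1.49 to 4.61). All 3 libraries lay above the control, 2 of them by less than 2-fold. CFAP221 had 2.25 CPM against 3.92, 4.51 and 1.79 CPM, and CFAP47 had 1.46 CPM against 1.41, 1.12 and 0.512 CPM. Replicate 3 was the lowest library for both. SPAG6, a protein of the C1 microtubule, had 12 counts in the control, 97 and 90 in replicates 1 and 2, and 6 in replicate 3.

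Further members above 1 CPM came from smaller roles. CFAP44, a tether of an inner arm, had 1.37 CPM in the control against 1.69, 2.41 and 6.15 CPM. DRC3, of the nexin-dynein regulatory complex, had 0.750 CPM against 1.22, 1.37 and 2.56 CPM. Both were highest in replicate 3. CFAP410, of the base of primary cilia, had 2.17 CPM against 3.26, 2.71 and 6.18 CPM. CFAP418, a gene of inherited retinal disease, had 10.9 CPM against 16.0, 15.2 and 4.23 CPM. CFAP57 had 0.958 CPM against 0.626, 1.29 and 1.25 CPM, and CFAP92 had 2.67 CPM against 1.57, 2.06 and 1.73 CPM. Every gene named in this paragraph overlaps a gene on the other strand, CFAP418 (C8orf37-AS1) and CFAP57 (EBNA1BP2) over their full length.

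The main comparison asked which members differed 2-fold or more from the control, on the log2 CPM scale, in the same direction in all 3 labelled knockdown libraries. None of the 40 members did, in either direction. Over all 15880 genes with a mean of at least 1 CPM, 3.65% were higher and 2.72% were lower by this rule, 6.37% in all. A count of 0 in 40 lies near that background. With 1 control library there is no test of the conditions. At 1.5-fold, 2 members were higher and 3 lower, against 10.0% and 9.61% of genes. Without replicate 3, 4 members were 2-fold higher (DNAAF11, DNAAF9, ODAD2 and SPAG6) and 1 lower (DNAAF5), against 9.76% and 5.36% of genes. In replicate 1 alone, 3 of 40 members were 2-fold higher and 2 lower, against 11.3% and 7.5% of all genes. In replicate 2 alone, 3 were higher and 1 lower (10.4% and 6.71% of all genes), and in replicate 3, 6 were higher and 6 lower (11.3% and 15.9%).

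By direction alone, 14 of the 40 members were above the control in all 3 libraries and 13 below it, against 30.1% and 34.2% of all genes. In 12 of the other 13, replicates 1 and 2 lay on 1 side and replicate 3 on the other. The mean log2 difference was smaller than its SD over the 3 libraries in 15 members. Its median was 0.11 over the 40 members and -0.02 over all genes tested, and the members' median in single libraries was 0.12, 0.19 and -0.09. With total counts in place of TMM, the median over all genes in replicate 3 moved from -0.15 to 0.05, and that of the members from -0.09 to 0.06.

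Median mean log2 differences by role were 0.49 for the central pair (7 genes), 0.36 for radial spokes (3 genes), 0.24 for the outer arm (5 genes), 0.08 for the inner arm (7 genes) and -0.20 for assembly factors (6 genes). After removal of length and GC trends the central pair median was 0.15 and the spoke median 0.0014. Single genes within a role differed by more than these medians did. Central pair genes ranged from -0.89 to 1.01, assembly factors from -0.91 to 1.24 and heavy chains from -0.70 to 0.61. Library by library, the central pair median was 0.74, 0.79 and -0.28, so its sign in replicate 3 was opposite to that in replicates 1 and 2. The spoke median was 0.56, 0.75 and -0.02. The outer arm median was 0.12, 0.07 and 0.46, highest in replicate 3. The order of the 5 roles therefore differed between libraries. The sign of the central pair median in replicate 3 was negative under TMM, DESeq2 size factors, total counts and upper quartile scaling. The spoke median in replicate 3 turned to 0.17 with total counts and 0.11 with upper quartile scaling, and that of the inner arm from -0.05 to 0.15 and 0.09. Members with an X-box in the promoter had a median of -0.32 (8 genes) and those with a window but no match 0.15 (25 genes), with ranges that overlapped.

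**Figure D4:**
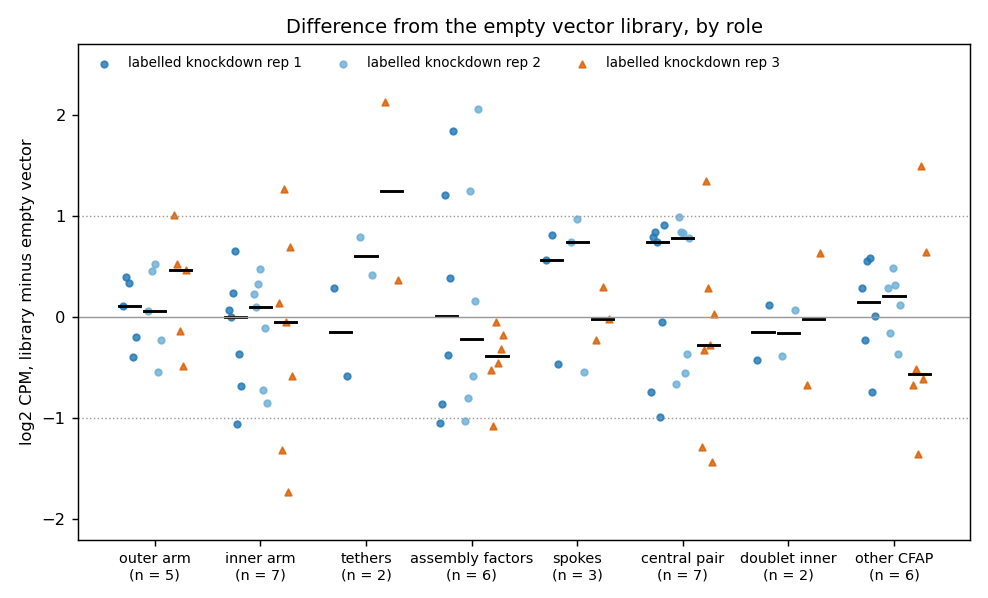
Difference in log2 CPM of each labelled knockdown library from the control for the members above 1 CPM, by role; points are genes, black bars are medians, and dotted lines mark 2-fold. For the central pair, radial spokes, inner arm and other CFAP members, the replicate 3 median is negative (-0.28, -0.02, -0.05 and -0.56). Those of replicates 1 and 2 lie above 0 in these roles. Replicates 1 and 2 differ in median sign for the tethers (-0.15 and 0.60) and the assembly factors (0.009 and -0.21).

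Differences between libraries went with transcript length. Spearman's rho between longest transcript length and log2 difference was 0.347, 0.298 and 0.460 for replicates 1, 2 and 3 over 15485 genes, as a description over genes that share the same libraries. The heavy chain transcripts, with a median of 13750 nt, are among the longest, and the part of length in their values was not tested on its own. After smooth trends on length and GC content were removed, the heavy chain median moved from 0.11 to -0.65. DNAH9 and DNAH7 were then 2-fold lower in all 3 libraries, against 1.45% of all genes, and 0 members were higher, against 2.96%. DNAH14 moved to a mean of -0.63. The mean changed sign, from above to below 0, in 7 of the 10 heavy chains above 1 CPM (DNAH1, DNAH5, DNAH6, DNAH8, DNAH11, DNAH14 and DNAH17), so a direction for these genes depends on that step. Members with shorter transcripts moved as well. The mean of CFAP20 went from -0.49 to -0.09, that of CFAP36 from -0.30 to -0.01 and that of CFAP298 from -0.47 to -0.24. CFAP126 rose from 0.27 to 0.63.

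The cytoplasmic dyneins, which carry cargo in all cells and run along the inside of cilia, have heavy chains of like size. DYNC1H1 had 136 CPM in the control against 350.5, 341 and 462 CPM in the replicates. DYNC2H1, the motor of retrograde transport in cilia, had 11.6 CPM against 29.6, 30.7 and 28.6 CPM. Both were 2-fold higher in all 3 libraries. DYNC2I2, an intermediate chain of the ciliary motor, was 2-fold lower in all 3, at 64.9 CPM against 25.9, 24.7 and 32.4 CPM. With trends removed, none of the 3 kept its call: DYNC1H1, DYNC2H1 and DYNC2I2 stood at mean log2 differences of 0.61, 0.58 and -0.75. In this list of 14 genes, 13 were tested, 2 were higher and 1 was lower, where 3.65% and 2.72% of all genes were.

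Replicate 3 was then set against replicates 1 and 2, which gives the spread within the labelled knockdown group. The median absolute log2 difference over the 40 members was 0.14 between replicates 1 and 2 and 0.68 between replicates 1 and 3. Of 43 members with a labelled knockdown mean of at least 1 CPM, 2 were at least 2-fold higher in replicate 3 than in both others (CFAP44 and DNAH2), against 6.79% of 16001 genes. Another 8 were 2-fold lower, against 13.0% of genes. These were DNAAF11, DNAAF9, ODAD2, CFAP418, CFAP221, CFAP47, DNAH3 and SPAG6. DNAI7, an axonemal intermediate chain named for its values, was below that minimum level and had 75 and 86 counts in replicates 1 and 2, 6 in the control and 0 in replicate 3. A count of 0 there allows up to 0.236 CPM, the upper end of the 95% exact Poisson interval on counts divided by 2.

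The regulators were at the edge of detection. FOXJ1 (ENSG00000129654.8; chromosome 17, 76136333 to 76141299, minus strand, GRCh38) had 4 counts in the control against 76, 51 and 34 counts in the replicates. In CPM this was 0.167 against 1.22, 0.854 and 1.09, a mean of 1.05 ± 0.186 (SD, n = 3). Its ratios to the control were 7.33 (1.89 to 62.7), 5.13 (1.31 to 45.4) and 6.53 (1.55 to 58.3). All 3 intervals, which cover counting error only, lay above 1, but they were wide and share the 4 counts of the control. Part of the gene overlaps RNF157-AS1 on the other strand. GMNC, upstream of FOXJ1, had 1.17 CPM in the control against 1.16, 0.536 and 0.576 CPM. MCIDAS, also upstream of FOXJ1, had 0.667 CPM against 0.273, 0.553 and 0.832 CPM. Every GMNC and MCIDAS ratio interval spanned 1, so neither a difference nor its absence was shown for them.

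FOXJ1 was 1 of 6 members between 0.1 and 1 CPM that were at least 2-fold higher in all 3 libraries; 6 others were 2-fold lower. Among the 10706 genes at that level, 9.57% were higher and 5.63% lower by the same rule, and 41 members lay there. Over all genes of at least 0.1 CPM the shares were 6.04% and 3.89%. These members other than FOXJ1 are named because of their values. ODAD4, of the docking complex, had 6 counts in the control against 71, 79 and 38 in the replicates, with ratios of 4.56 (1.46 to 23.5), 5.29 (1.71 to 27.1) and 4.87 (1.43 to 25.7). RSPH4A, a spoke head protein of airway cilia, had 4 counts against 54, 59 and 31, with ratios of 5.20 (1.31 to 45.2), 5.93 (1.53 to 52.1) and 5.96 (1.45 to 55.1). FOXJ1, ODAD4 and RSPH4A were the higher members whose 3 intervals all lay above 1. These genes passed the rule on the same counts, and the 3 intervals of a gene share 1 control count. The intervals are therefore a description and not separate support. DNAH12 had 2 counts against 28, 20 and 17, with a ratio in replicate 1 of 5.40 (0.821 to 228). CFAP54 of the central pair had 8 counts against 53, 46 and 24, and CFAP52, inside the doublet, had 0 against 31, 17 and 4. The lower ends of the CFAP52 ratio intervals were 1.49, 0.686 and 0.144, so only that of replicate 1 lay above 1. At such counts the size of the difference rests mainly on the control.

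On the lower side, DNAAF3, an assembly factor, had 20 counts in the control against 10, 6 and 2 counts in the replicates, or 0.833 CPM against 0.161, 0.101 and 0.064 CPM. ODAD3 of the docking complex had 32 counts against 34, 34 and 2, or 1.33 CPM against 0.546, 0.570 and 0.064 CPM. CFAP95 had 35 counts against 22, 17 and 19, or 1.46 CPM against 0.353, 0.285 and 0.608 CPM. In these 3 genes all ratio intervals lay below 1, again on the counts that passed the rule and with 1 control count shared. The docking complex thus held ODAD4 among the higher and ODAD3 among the lower genes. CFAP210, CFAP65 and CFAP107 had 17, 12 and 6 counts in the control, and at least 1 of their 3 intervals included 1.

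**Figure D5:**
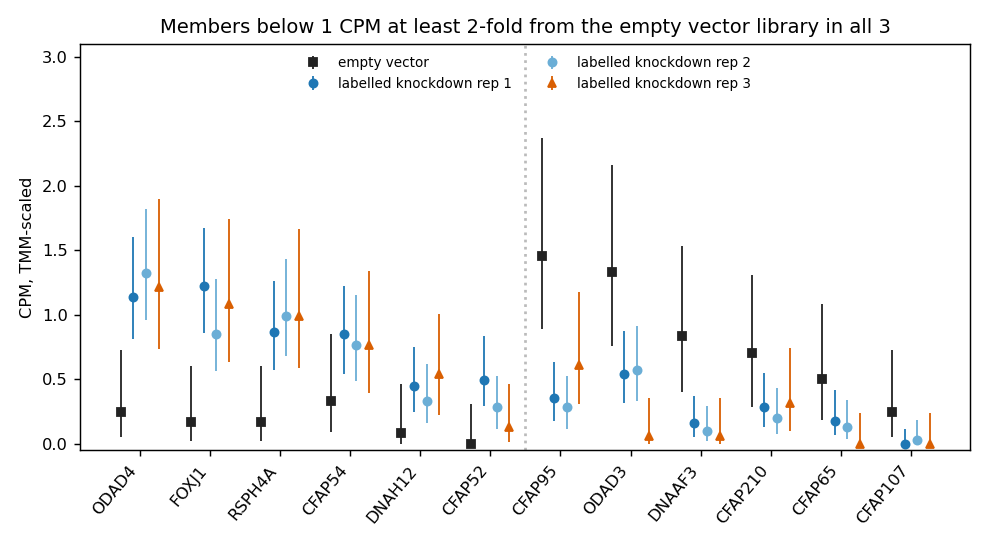
CPM (TMM-scaled) of the 12 members between 0.1 and 1 CPM that were at least 2-fold from the control in all 3 labelled knockdown libraries, with 95% exact Poisson intervals on counts divided by 2, which cover counting error only. The 6 higher genes are left of the dotted line and the 6 lower genes right of it.

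Of 40 further motile cilia genes outside the choice by symbol, 27 (67.5%) were above 1 CPM. That lay above the 44.9% of the members and near the 67.3% of protein-coding genes. Of the 27, 1 was 2-fold higher in all 3 libraries and 0 were lower, where 3.65% and 2.72% of all genes were. Their median log2 difference was -0.16, against 0.11 for the members. The higher gene was MNS1, a doublet protein of sperm and nodal cilia, with 1.00 CPM against 3.18, 3.00 and 2.05 CPM. Of 17 further regulators of multiciliation, 15 were tested. In all 3 libraries 1 was 2-fold higher and 1 lower, where 3.65% and 2.72% of all genes were. RFX4, an X-box binding factor of neural tissue, was higher, with 0.750 CPM (18 counts) in the control against 6.20, 5.49 and 3.20 CPM in the replicates. GMNN (geminin), which limits DNA replication and multiciliation, was lower, with 94.7 CPM against 31.0, 31.7 and 45.4 CPM. After trend removal RFX4 kept its call, while GMNN lost it, at -0.33 in replicate 3. RFX3, the RFX factor most tied to ciliary genes, had 14.0 CPM against 37.7, 35.4 and 19.8 CPM and was not 2-fold higher in replicate 3. Neural markers moved as well: MAP2 and PAX6 (listed at 0 in the control) were 2-fold higher in all 3 libraries among 6 of 8 tested, where 3.65% of all genes were. The part of neural cells in the RFX4 and FOXJ1 values was not tested. Summed over the 8 neural markers the level was 191 CPM in the control against 362, 341 and 321 CPM in the replicates, most of it from NES, which was not past 2-fold in all 3. Without NES the other 7 summed to 23.2 CPM against 70.8, 66.6 and 51.5 CPM. After trend removal PAX6 kept its call and MAP2 did not.

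edgeR's quasi-likelihood test over 26029 genes takes its spread from the 3 labelled knockdown libraries alone, so it compares 1 library with 3 and not the conditions. It called 0 of 73 members with Benjamini-Hochberg adjustment at 0.05, against 0.0% of all genes. At an unadjusted p under 0.05 it had 9 members (11.6% of all genes pass that line). The Wald test of DESeq2 called 0 members and 0.607% of genes, with 7 members and 6.48% of genes at an unadjusted p under 0.05. For voom in limma these were 0 members and 0.0% of genes, with 4 members and 8.58% of genes unadjusted. In edgeR with DESeq2-type (RLE) scaling 0 members were called, with 9 members and 11.9% of genes unadjusted, and with no filter on low counts 0, with 8 members and 7.81% of genes. Without replicate 3 edgeR called 28 of 76 members, 18 higher and 10 lower, where it called 44.7% of all genes; 37 members and 50.3% of genes had an unadjusted p under 0.05. Without replicate 1 or 2 it called 0 members, against 0.0737% and 0.169% of genes, with 1 member each and 4.26% and 6.0% of genes unadjusted. Of the members, 57 overlap another annotated gene on the opposite strand and 38 one on the same strand. The strand setting of the counting is not given in the sources used here, so their counts may include reads of those genes.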

How the data were processed

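RNA of NT2 cells was depleted of ribosomal RNA and made into libraries that mark strand with dUTP, per the labels' protocols. The authors deposited raw counts per gene, 1 table per library. STAR 2.7.11b, featureCounts 2.0.6, DESeq2 and GRCh38 (hg38) are named in the submitters' processing notes, with no roles; the annotation release and strand setting are not given in the sources used here. Between 65.2% and 68.0% of nonzero counts were even, which counting each mate of a pair would give, so intervals (95%, exact Poisson or exact binomial) use counts divided by 2 and cover counting error only.

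Counts were scaled with TMM factors from edgeR 4.0.16 (R 4.3.3), computed on genes kept by filterByExpr and applied to full totals. Factors from all genes were computed first and are given as an alternative added after seeing the data. Log2 CPM used a prior count of 2. Members entered comparisons at a mean of the 2 group means of at least 1 CPM. Groups follow the sample titles. Coordinates and lengths are from GENCODE 29 (GRCh38), which matched all 89 members and 58269 of 62696 genes. Promoter windows and their sequences are from RefSeq (GRCh38.p14), and 17 members had none. The X-box was planned as a motif; forkhead and CCAAT letters were added after the windows were seen. DESeq2 1.42.0 and limma 3.58.1 served as alternatives. Trends were removed by lowess (span 0.3) on length, then GC. That removal, the 2-fold rule and the edgeR fit were tested on simulated data. DESeq2, voom and the motif search were not. The simulated data are not taken as a check of the removal at heavy chain lengths (median 13750 nt). Nor are they taken as a check of the rule for members near 1 CPM.

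Named members are the 3 regulators, any past the 2-fold rule, the 10 highest per kb, the 10 above 1 CPM with the largest range over libraries, and the highest and lowest difference of each role. Others named with values were chosen after these were seen. Members and lists were chosen with earlier results of these data known.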

Additional observations from a re-analysis of the deposited data

How the results depend on the processing

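Depth limits the members under 1 CPM, where on counts divided by 2 a count of 0 allows up to 0.307 CPM in the control and 0.236 CPM in replicate 3. No paired analysis was possible because a single control library, with no replicate number, cannot be matched to 3.

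At 1 CPM per kb, 17 members passed in place of 40. The number 2-fold higher in all libraries, 0, became 6 with a minimum of 0.1 CPM, 7 with no filter and 2 at 1.5-fold (CFAP69 and DRC3), and ranged from 0 to 4 with 1 replicate left out. The number lower, 0, became 6 at 0.1 CPM and with no filter, 2 after trend removal and 3 at 1.5-fold (DNAAF2, DNAI3 and SPAG16), and ranged from 0 to 1 with 1 replicate left out (DNAI3 without replicate 2, DNAAF5 without replicate 3). After trend removal the medians were -0.61 for the outer arm, -0.68 for the inner arm, 0.0032 for assembly factors, 0.0014 for spokes, 0.15 for the central pair, -0.65 for heavy chains and -0.069 for all members. With no filter the outer arm median was 0.014. The inner arm median was 0.17 with total counts and 0.25 at a minimum of 5 CPM, and 0.048 to 0.19 with 1 replicate left out. The assembly factor median was -0.47 at a minimum of 0.1 CPM and -0.47 at 5 CPM. The central pair median was -0.89 at 5 CPM, where SPAG16 alone was left. The spoke median was -0.024 at a minimum of 0.1 CPM and ranged from 0.17 to 0.77 with 1 replicate left out. Members higher in replicate 3 than in both others, 2, became 6 with total counts, 6 with upper quartile scaling and 0 at 5 CPM; those lower, 8, became 5, 5 and 4. Calls by edgeR among members ranged from 0 to 28 with 1 replicate left out. For these changes the cause was not tested. TMM factors from all genes, added after seeing the data, left 39 members above 1 CPM, 0 higher and 0 lower. The mean log2 difference changed sign in 1 of 30 named members under those factors, 1 of 30 with total counts, 3 of 27 after trend removal, and 1, 1 and 4 of 30 without replicates 1, 2 and 3.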
